A study of Mus musculus with 9 samples.

Results

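miR-3960 and miR-2861 are 2 mouse microRNAs (miRNAs, short RNAs that lower the output of messenger RNAs they pair with). They were taken by name, as the array rows of mmu-miR-3960 and mmu-miR-2861, and are 2 of the 1881 mouse miRNAs on the array. Each is read by 2 of the 4415 mouse probes. The study worked with osteoblastic cells derived from marrow of 8-week-old C57BL/6 males. A first 7 days of culture was followed by 7 days in medium containing β-glycerol phosphate, an ascorbic acid phosphate and dexamethasone, a mixture that drives osteoblast differentiation. The cells then received alpha particles at 0.5 or 1 Gy, at 0.22 Gy per minute, or 0 Gy, with 3 arrays per dose (9 in all). All groups share the strain, sex, age, culture and medium. The labels report no sorting or cloning of the cells, and neither the time from irradiation to RNA extraction nor a mock exposure of the 0 Gy cells is given in the sources used here. Whether the arrays of a dose stem from different mice or dishes is not labelled, so the p-values reflect sample-to-sample spread that may be purely technical.

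The miRNAs come from neighbouring hairpins and are known from mouse stromal cells as a cluster that favours osteoblast differentiation. miR-2861 acts on Hdac5, a histone deacetylase that promotes the breakdown of Runx2. miR-3960 acts on Hoxa2, a homeobox factor that holds Runx2 back. Runx2 is the transcription factor that commits cells to the osteoblast lineage, and it is known to bind the promoter of the cluster, which makes a positive loop. These protein-coding genes are not measured by a miRNA array.

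The RefSeq table used here, on build GRCm38.p6, places both hairpins on the minus strand of chromosome 2, 11 bases apart, the Mir3960 hairpin at chr2:32712900-32712972 and the Mir2861 hairpin at chr2:32712807-32712888. Cdk9, a kinase gene, and the long non-coding RNA gene Gm33457 are the genes on either side of the pair in the RefSeq order. The hairpins are shown because of their unusual base composition. In the first line below the capitals mark mature miR-2861 (bases 52 to 70 of its hairpin), in the second the longest run of the unit GGC, and in the third the seed, bases 2 to 8, with which a miRNA pairs to its targets.
Mir2861 hairpin: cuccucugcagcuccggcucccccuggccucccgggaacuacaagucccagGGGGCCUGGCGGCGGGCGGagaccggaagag
Mir3960 hairpin: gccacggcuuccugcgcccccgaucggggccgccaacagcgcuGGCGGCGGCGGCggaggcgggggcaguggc
mmu-miR-2861: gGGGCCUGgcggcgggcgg

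G and C make up 82.2% of the 73 bases of the Mir3960 hairpin and 73.2% of the 82 bases of the Mir2861 hairpin. The median over the 1005 hairpins of the table was 51.7%, and 4 and 18 hairpins, each count including the hairpin itself, reached these values. Mature miR-2861 has 13 G, 5 C, 1 U and no A among its 19 bases. Searching the RNA strand of all hairpins for the unit GGC repeated 4 times without a gap found it in 2 of 1005 (0.199%), Mir3960 among them. The table has no mature entry for miR-3960, whose seed was not searched here. The only other mature miRNA of the table with the seed of miR-2861 was miR-3091-3p, which was detected on 0 of 9 arrays. Past the seed the sequences part, as the lines below show with the seed in capitals.
miR-2861: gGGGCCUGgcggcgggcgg
miR-3091-3p: cGGGCCUGaccagucucaagac

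Some arrays stood apart. The probes of miR-494-3p held 54.9% of the detected probes' summed intensity on array 1 of 0 Gy, against 2.99% to 7.74% on the other 8 arrays. The 75th percentile of the 45 probes detected on all 9 arrays, on which each array was scaled, was 1462 intensity units on that array and 618 to 815 on the others. The additive error that the scanner software estimated was 19.4 units on array 1 of 0.5 Gy, 11.2 on array 1 of 1 Gy, and 1.60 to 2.83 on the other 7. One slide held arrays 1 and 3 of every dose. Array 2 of 0 Gy lay alone on a second slide, and the arrays numbered 2 of 0.5 and 1 Gy shared the third. The third slide was scanned on a different day from the others, which held all 0 Gy arrays. The osteoblast's defining markers are protein-coding genes and were not measured. Of 10 stromal marker miRNAs, 6 were detected on any array, and their summed level lay between 80.5 and 1210 scaled units (0 Gy), 351 and 1150 (0.5 Gy) or 488 and 1140 (1 Gy). Of 5 myeloid markers 2 were detected, with a summed level that started at 0 in each dose and reached 70.3 (0 Gy), 60.7 (0.5 Gy) and 58.9 (1 Gy). The lymphoid list had 1 of 3 detected, miR-181a-5p, at 66.9 to 199, 164 to 204 and 144 to 210. The 3 erythroid and platelet markers and the 2 endothelial markers were detected on none. In these bulk samples fewer cells of a type and less miRNA per cell cannot be told apart.

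miR-3960 gave a strong signal on every array. The sum of the mean spot intensities of its probes, background-subtracted but not yet scaled between arrays, was 2638, 2429 and 1256 on arrays 1, 2 and 3 of 0 Gy. The irradiated arrays gave 1348, 892 and 1244 (0.5 Gy) and 1057, 907 and 762 (1 Gy). The unscaled 1 Gy values thus all lay below the 0 Gy values, and the 0.5 Gy values overlapped with both. Among the 134 miRNAs tested, 10 (7.46%) had their unscaled 1 Gy arrays all below their 0 Gy arrays.

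After scaling, miR-3960 stood at a log2 level of 10.42, 11.38 and 10.41 on the 0 Gy arrays. The irradiated arrays stood at 10.63, 10.04 and 10.41 (0.5 Gy) and 10.34, 9.73 and 9.47 (1 Gy). Array 2 of 0 Gy was the highest of the 9, and the 1 Gy arrays again lay below those of 0 Gy, the nearest pair by 10.34 against 10.41. After scaling, too, 10 of 134 tested miRNAs (7.46%) had this order of arrays. The mean was 10.73 ± 0.56 at 0 Gy, 10.36 ± 0.30 at 0.5 Gy and 9.85 ± 0.45 at 1 Gy (log2, SD, n = 3). Means that were lower at each dose step were found for 48 of the 134 tested miRNAs (35.8%). The arrays of neighbouring doses overlapped.

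miR-2861 was far nearer to the detection limit. Its unscaled intensity sum was 147, 116 and 124 without irradiation, 48.9, 84.1 and 97.5 after 0.5 Gy, and 71.8, 88.7 and 82.4 after 1 Gy. In this background-subtracted intensity the 0 Gy arrays lay above all 6 irradiated arrays. The spots' median signal before subtraction did not keep that order. On array 1 of 0.5 Gy it was 115 and 113 for the 2 probes, against 82 to 113 on the 0 Gy arrays. Before scaling 16 of 134 tested miRNAs (11.9%) had their 0.5 Gy arrays all below those of 0 Gy, and 10 (7.46%) their 1 Gy arrays. The order of the background-subtracted intensity was not kept after scaling either, where array 1 of 0 Gy was divided by the largest factor.

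The scaled log2 levels of miR-2861 were 6.25, 6.99 and 7.07 without irradiation, 5.85, 6.63 and 6.73 after 0.5 Gy, and 6.46, 6.38 and 6.26 after 1 Gy. All 3 doses overlapped. The means were 6.77 ± 0.45, 6.40 ± 0.48 and 6.37 ± 0.10 (log2, SD, n = 3), so that the spread among the 1 Gy arrays was the narrowest. A probe counted as detected where at least 50% of its spots were well above background, and miR-2861 was detected on 3 of 3 arrays at 0 Gy but on 2 of 3 at 0.5 Gy and 2 of 3 at 1 Gy. The arrays without a detection call were array 1 of 0.5 Gy and array 1 of 1 Gy, the pair with the large additive error. It therefore entered the tests through 0 Gy alone, the dose where its mean was highest. miR-3960 was detected on all 9 arrays.

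**Figure D1:**
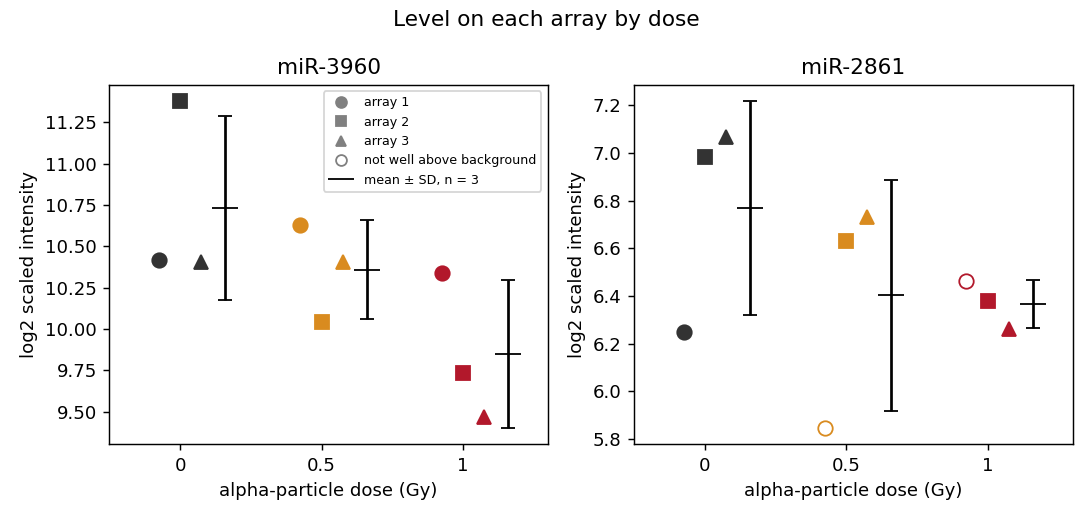
Log2 scaled intensity (y axis) of miR-3960 and miR-2861 on each array against alpha-particle dose in Gy (x axis). Symbols are arrays 1 to 3 of a dose, open symbols were not well above background, and bars are the mean ± SD of 3 arrays. The 1 Gy arrays of miR-3960 sit between 9.47 and 10.34, below the 0 Gy arrays, while the doses of miR-2861 overlap.

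The probes of each miRNA gave nearly the same order of arrays. For miR-3960, probe A_54_P00005623 ran from 402 units on array 3 of 1 Gy to 1394 on array 1 of 0 Gy, and probe A_54_P00005624 from 359 to 1244 on the same arrays. The second probe read 0.872 times the first on average, with a ratio between 0.832 and 0.893 over the 9 arrays. Over those arrays their log2 values correlated at r = 0.998. All spots of both probes were well above background on every array. For miR-2861, probe A_54_P00004773 ran from 24.2 to 72.2 units and probe A_54_P00004774 from 24.7 to 74.6, both lowest on array 1 of 0.5 Gy and highest on array 1 of 0 Gy. Their ratio lay between 0.806 and 1.03, and r was 0.976. This order of arrays was that of the background-subtracted intensity. Before subtraction the median spot signal was 115 and 113 on array 1 of 0.5 Gy. It was 109 and 113 on array 1 of 0 Gy, and 99 and 99.5 on array 1 of 1 Gy. On the 2 arrays without a detection call, 0% of the spots of either probe were well above background. Probes of 1 miRNA read the same labelled RNA and are not replicates.

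The mean of a probe on 1 array had a small error, since it rests on many spots. With 14 or 15 spots per probe and array, the coefficient of variation was at most 3.0% for the probes of miR-3960. It was 4.29% to 22.4% for those of miR-2861, with 16.4% and 22.4% on array 1 of 0.5 Gy. The SE of a probe's mean over its spots was at most 0.774% for miR-3960 and 5.77% for miR-2861. Between arrays of a dose the SD of the log2 level was 0.45 for miR-3960 and 0.39 for miR-2861. The highest scaled level of miR-3960 was 3.75 times the lowest over the 9 arrays, and that of miR-2861 2.33 times. The differences between arrays thus made up most of the error in the comparisons of doses.

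**Figure D2:**
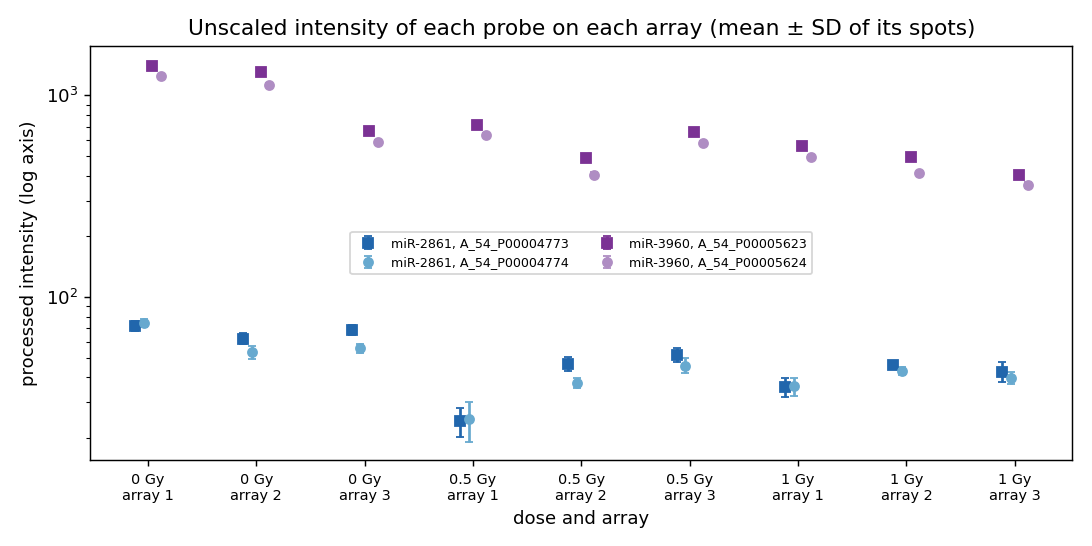
Unscaled processed intensity (y axis, log axis) of the 2 probes of miR-3960 and the 2 probes of miR-2861 on the 9 arrays (x axis). Points are means and bars SDs over 14 or 15 spots, and for miR-3960 the bars are hidden by the symbols. Probes of a miRNA move together from array to array, and the widest bars are those of miR-2861 on array 1 of 0.5 Gy.

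The first comparison asked whether 0.5 Gy changed the cluster. miR-3960 differed from 0 Gy by -0.38 (SE 0.46, 95% confidence interval -1.41 to 0.66) on the log2 scale, which is 0.771 times the 0 Gy level. The difference of miR-2861 was -0.36 (SE 0.44, interval -1.35 to 0.62), or 0.777 times. Neither passed limma over all 134 tested miRNAs (adjusted p = 0.667 and 0.664). limma called 0 of 134 (0%) at an adjusted p of 0.05, with 2 at an unadjusted p under 0.05. Most tested miRNAs were lower on average at 0.5 Gy, 96 of 134 (71.6%), with a median of -0.47, and miR-3960 and miR-2861 lay 0.091 and 0.10 above that median. The median itself depended on processing and on the miRNAs counted. It was 0.32 after normexp background correction, where miR-3960 lay at -0.67 from it, 0.92 without the detection filter and 0.0087 among the 28 miRNAs detected on all 9 arrays. The difference of miR-3960 turned to 0.11 within the slide that held 6 arrays and to 0.055 with slide as a block, and it was -0.053 without array 2 of 0 Gy alone. That array is the only one on its slide, so slide and array cannot be told apart. For miR-2861 the value turned to 0.23 after normexp and stood at -0.085 without array 1 of 0.5 Gy.

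At 1 Gy miR-3960 had its larger difference, -0.89 (SE 0.46, interval -1.92 to 0.15), or 0.541 times the 0 Gy level (interval 0.264 to 1.11 times). Its unadjusted limma p was 0.0851 and its adjusted p 0.539, the 10th smallest p of 134. For miR-2861 the difference was -0.40 (SE 0.44, interval -1.38 to 0.58), 0.758 times the 0 Gy level, with an adjusted p of 0.607. limma called 0 of 134 miRNAs (0%), and 4 had an unadjusted p under 0.05. At this dose 100 of 134 (74.6%) had a lower mean, and the median was -0.49. Relative to it miR-3960 stood at -0.40 and miR-2861 at 0.091, and 32 of the 134 had a more negative difference than miR-3960. Here too the median changed sign, to 0.11 after normexp, 0.45 without the detection filter and 0.14 among the 28 miRNAs detected on all arrays, and miR-3960 then stood at -0.94, -1.34 and -1.03 from it. Both miRNAs had a lower mean at 1 Gy under each scaling and background correction run, from -2.13 to -0.82 for miR-3960 and from -1.64 to -0.012 for miR-2861, the last after normexp. Within the slide of 6 arrays miR-3960 differed by -0.51 and miR-2861 by -0.30, and with slide as a block by -0.46 and -0.35. The median in these settings was -0.71 and -0.67, so miR-3960 then lay above it, by 0.20 and 0.21. Without array 2 of 0 Gy, alone on its slide, miR-3960 differed from 0 Gy by -0.56, against a median of -0.43.

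**Figure D3:**
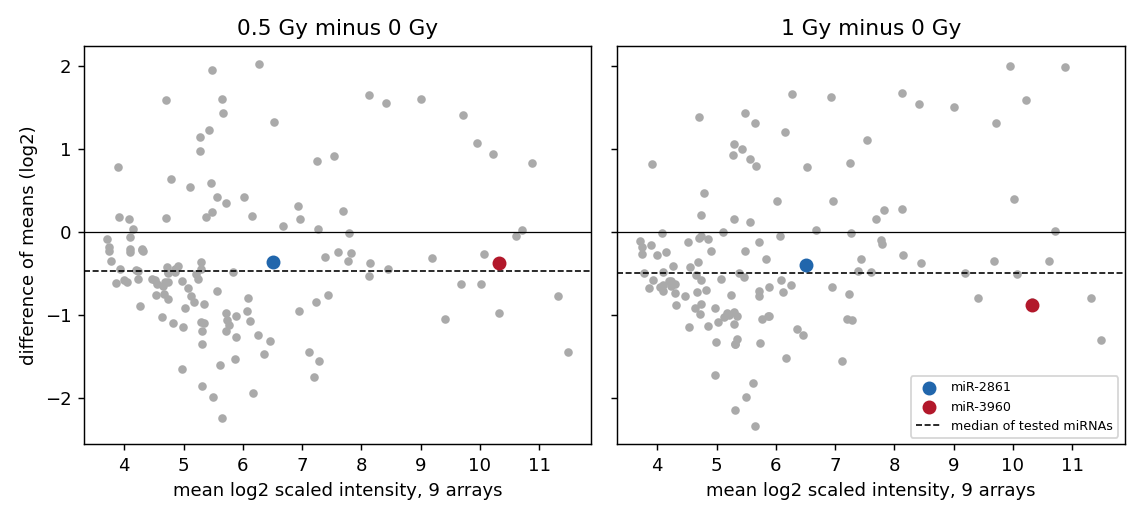
Difference of means from 0 Gy on the log2 scale (y axis) against the mean log2 level over 9 arrays (x axis) for the 134 tested miRNAs, at 0.5 Gy (left) and 1 Gy (right). Each point is a miRNA and the dashed line is the median of all, -0.47 and -0.49. miR-3960 and miR-2861 lie near the line at 0.5 Gy, and miR-3960 lies below it at 1 Gy, at -0.89.

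The 0 Gy arrays serve in both of these comparisons, which are therefore not independent. Set against 0.5 Gy, the 1 Gy level of miR-3960 differed by -0.51 (SE 0.46, interval -1.55 to 0.52) and that of miR-2861 by -0.036 (SE 0.44, interval -1.02 to 0.95). Both had an adjusted limma p of 0.999, and limma called 0 of 134 (0%), with 0 at an unadjusted p under 0.05. Of the 134, 75 had a lower mean at 1 Gy (56%, by a median of -0.035), and 12 had a more negative difference than miR-3960. Arrays of the same number at these doses deviated together. So did array 2 of 0.5 Gy with array 3 of 1 Gy (r = 0.578) and array 3 of 0.5 Gy with array 2 of 1 Gy (0.547). Arrays 1 of these doses correlated negatively with arrays 2 and 3 of the other dose, at -0.66 to -0.82. Deviations of 3 arrays from their mean sum to 0, so 1 outlying array sets the others against it. The correlations cannot show by themselves that the numbers are pairs. Between arrays of the same number miR-3960 differed by -0.29, -0.31 and -0.94 and miR-2861 by 0.61, -0.25 and -0.47. The difference of miR-2861 changed sign between these pairs and that of miR-3960 did not. How many of the tested miRNAs kept their sign over the pairs was not counted, so no result is read from this. The linear slope per Gy was -0.89 (SE 0.42, interval -1.82 to 0.047) for miR-3960, with an unadjusted limma p of 0.0604 and an adjusted p of 0.495. The slope of miR-2861 was -0.40 (SE 0.40, interval -1.29 to 0.49, limma adjusted p = 0.554). With 3 evenly spaced doses of 3 arrays each, these slopes equal the differences of 1 Gy from 0 Gy. The 0.5 Gy arrays enter only their error, so the slopes are no separate result on the course over dose. limma called 0 of 134 slopes (0%), with 5 at an unadjusted p under 0.05. The F test for any difference among the 3 doses gave adjusted p values of 0.752 for miR-3960 and 0.79 for miR-2861, with 0 of 134 called (0%) and 3 at an unadjusted p under 0.05. The confidence intervals, which were not adjusted for the number of miRNAs tested, reached 1.03 and 0.98 to each side. This is about 2.05-fold for miR-3960 and 1.98-fold for miR-2861, and smaller differences could not be told from none even before adjustment. The adjusted test over 134 miRNAs asks for more, and the smallest change it could call was not worked out.

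Probe by probe, the differences at 1 Gy were -0.88 (SE 0.45) and -0.90 (SE 0.45) for the probes of miR-3960, and -0.44 (SE 0.45) and -0.35 (SE 0.41) for those of miR-2861. At 0.5 Gy they were -0.36 and -0.39 for miR-3960, and -0.37 and -0.36 for miR-2861. None passed limma over the 234 probes tested, with adjusted p values between 0.515 and 0.621, and 0 probes in all were called in either comparison. The probes of a miRNA thus differed from each other by less than 0.10 in each of these comparisons.

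**Figure D4:**
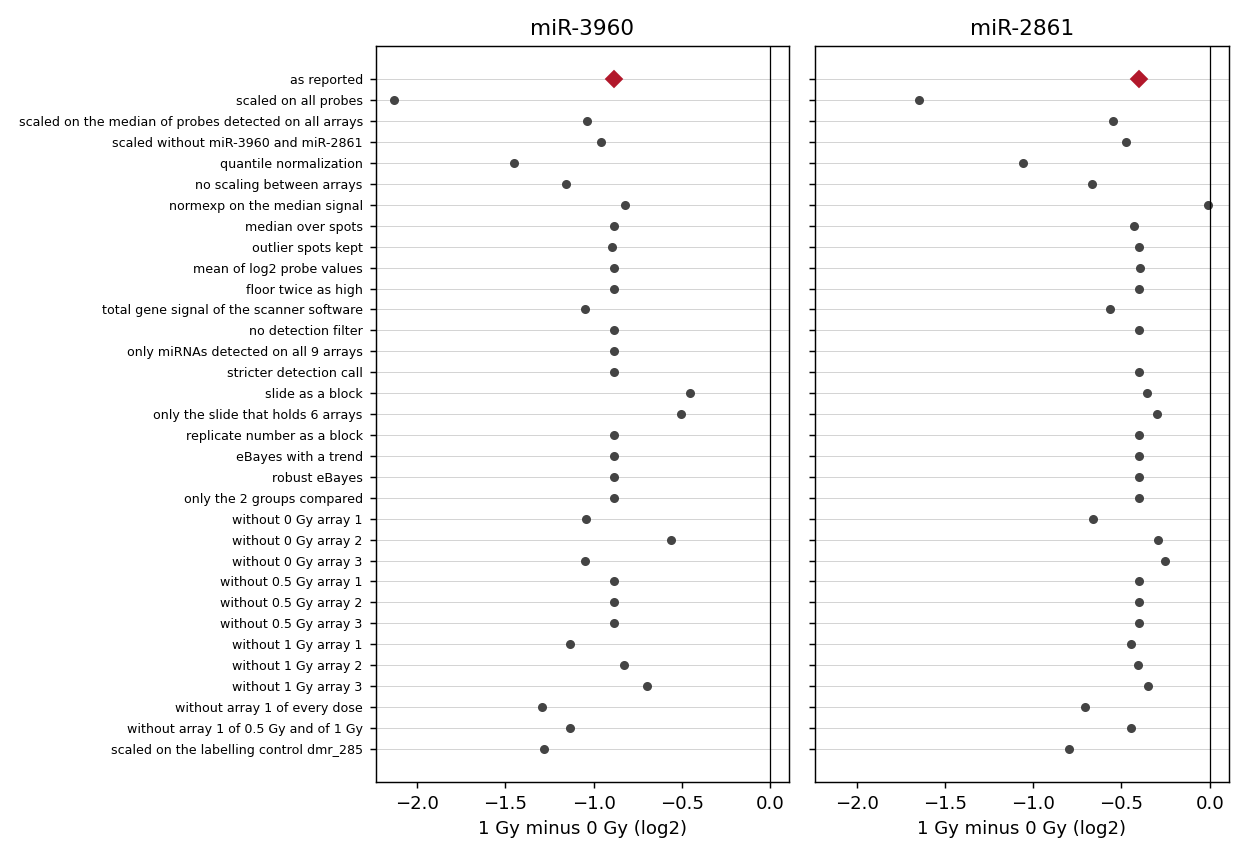
Difference of 1 Gy from 0 Gy on the log2 scale (x axis) for miR-3960 (left) and miR-2861 (right) as reported (diamond, -0.89 and -0.40) and under each alternative processing (dots, named on the y axis). All values lie below 0, from -2.13 for miR-3960 when scaled on all probes to -0.012 for miR-2861 after normexp. miR-2861 has no value among miRNAs detected on all 9 arrays.

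Whether the pair kept its proportion across doses was read from the log2 level of miR-3960 minus that of miR-2861 on the same array. Dividing an array by a factor leaves this difference as it is, whereas quantile normalization can change it. It compares changes only, since different probes differ in their response. The value was 4.17, 4.39 and 3.34 on the 0 Gy arrays, 4.79, 3.41 and 3.67 at 0.5 Gy, and 3.88, 3.35 and 3.21 at 1 Gy. The highest came from array 1 of 0.5 Gy, where miR-2861 was not well above background, and the doses overlapped. Means were 3.97 ± 0.56, 3.96 ± 0.73 and 3.48 ± 0.35 (SD, n = 3). The change at 1 Gy was -0.49 against 0 Gy (exact two-sided permutation p = 0.3) and -0.47 against 0.5 Gy (exact p = 0.5). At 0.5 Gy against 0 Gy it was -0.011 (exact p = 1). With 3 against 3 arrays such a test cannot go below 0.1. The slope on dose was -0.49 per Gy (exact two-sided permutation p = 0.304 over 1680 assignments of the arrays), and over these 4 tests the Benjamini-Hochberg adjusted p values ran from 0.608 to 1. By the design this slope, too, equals the difference of 1 Gy from 0 Gy.

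Over the 9 arrays the levels of miR-3960 and miR-2861 correlated only loosely, at r = 0.35 and Spearman's rho = 0.117. Around their dose means r was 0.077. The points share the array, its labelling and its scaling, so the values are a description. Array 1 of 0.5 Gy and array 3 of 0 Gy lay farthest from the median of miR-2861, at 5.85 and 7.07. Without this pair of arrays, left out for their values, r was 0.764 over the other 7, dose means included. The highest and lowest arrays of miR-3960, array 2 of 0 Gy at 11.38 and array 3 of 1 Gy at 9.47, stayed in. For these 7 arrays r around the dose means was not worked out, so no shared variation is read from this value.

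Among the 27 other miRNAs detected on all 9 arrays, those with a pattern most like miR-3960 over the arrays were miR-7047-5p (r = 0.841), miR-6937-5p (0.823), miR-709 (0.801), miR-8110 (0.726) and, much weaker, miR-5126 (0.306). The median over the 27 was 0.0088. miR-7047-5p differed by -0.31 at 0.5 Gy and -0.49 at 1 Gy, miR-6937-5p by -0.24 and -0.48, and miR-709 by -0.26 and -0.51. These 3 had the same sign as miR-3960 at each dose, with smaller differences at 1 Gy, and like it they did not pass the test. They were picked for likeness over these same arrays, dose differences included, so the shared sign is no separate support. Of all tested miRNAs, 71.6% had a lower mean at 0.5 Gy and 74.6% at 1 Gy. For miR-2861 the nearest were miR-8110 (r = 0.766), miR-709 (0.687), miR-5126 (0.612), miR-2137 (0.531) and let-7a-5p (0.356), against a median of -0.21. miR-8110 and miR-709, which stood on both lists, differed at 1 Gy by -0.35 and -0.51. miR-5126 differed by 0.015. let-7a-5p went the other way, by 1.67, so its likeness to miR-2861 lay between arrays of a dose (r = 0.787 around the dose means). These correlations share the scaling of the arrays and are descriptions.

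The mature sequences of these miRNAs, as far as the RefSeq table lists them, are given with the seed in capitals to show what the like patterns had in common in sequence.
miR-7047-5p: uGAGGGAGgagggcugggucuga
miR-6937-5p: uAGCUGUAagggcugggucugugu
miR-8110: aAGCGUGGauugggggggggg
miR-5126: gCGGGCGGggccgggggcgggg
miR-2137: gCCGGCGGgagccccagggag
let-7a-5p: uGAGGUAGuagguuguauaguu
No seed is shared among them or with miR-2861. Past the seed, miR-7047-5p and miR-6937-5p, the nearest to miR-3960 in pattern, share the stretch agggcugggucug. Whether their probes read the same RNA was not tested. G and C make up 100% of miR-5126, 85.7% of miR-2137, 71.4% of miR-8110, 65.2% of miR-7047-5p, 54.2% of miR-6937-5p and 36.4% of let-7a-5p, against 94.7% in miR-2861.

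**Figure D5:**
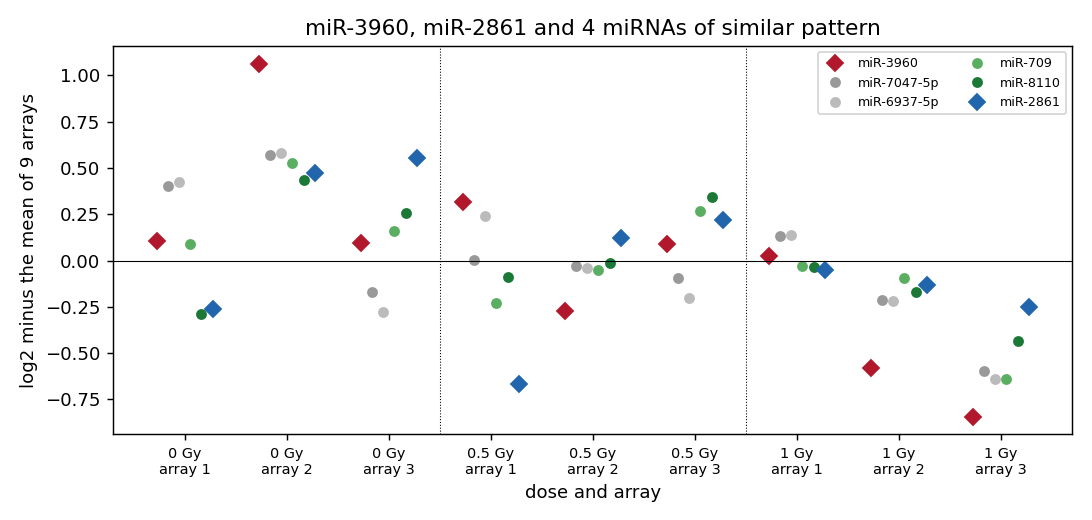
Log2 level minus the mean over 9 arrays (y axis) of miR-3960, miR-2861 and 4 miRNAs of similar pattern on each array (x axis), with dotted lines between the doses. Each point is 1 array. All 6 miRNAs lie above their mean on array 2 of 0 Gy and below it on array 3 of 1 Gy, and miR-2861 lies far below its mean on array 1 of 0.5 Gy.

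Other tested miRNAs rich in G and C were set beside miR-2861. Of the 134 tested miRNAs, 117 (87.3%) had a mature sequence in the table, and 8 of these held at least 80% G and C, miR-2861 among them. miR-3960, with no mature entry, is not in this group. Their brightest were miR-5126 (mean log2 level 10.71), miR-2137 (7.27) and miR-2861 (6.51). Of the 8, 6 had a lower mean at 0.5 Gy and 7 at 1 Gy, with medians of -0.30 and -0.36. The other 109 had 78 and 80 lower, with medians of -0.48 and -0.54. Only 2 of the 8 were detected on all 9 arrays, and 20 of the 109. Those 2 were miR-5126, which differed by 0.025 and 0.015, and miR-2137, by 0.032 and -0.018. The rest of the 8 were detected on 5 to 7 arrays. Such miRNAs can enter through the dose where they are high, as miR-2861 did, so no result is read from these counts and medians. limma called 0 of the 8 at 1 Gy, where percent called over all tested was 0%.

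Few other miRNAs that bear on Runx2 and on osteoblast differentiation were detected on all arrays of a dose, as the test required. Of 11 miRNAs known to target Runx2, 2 gave a detection call on some array and 0 met that rule. miR-23a-3p was detected on 6 of 9 arrays and miR-204-5p on 2. Of 11 other miRNAs known to promote osteoblast differentiation, such as miR-29a-3p, which acts on its inhibitors, 4 were detected and 0 tested. miR-29a-3p and miR-15b-5p were detected on 6 of 9 arrays, miR-21a-5p on 5 and miR-196a-5p on 2. Among 11 miRNAs known to restrain osteoblast differentiation, 4 were detected and 2 tested, miR-125b-5p and miR-214-3p, and 0 of 2 passed in either comparison with 0 Gy. miR-125b-5p differed by 1.56 (SE 0.84) at 0.5 Gy and 1.54 (SE 0.84) at 1 Gy, and miR-214-3p by 0.91 (SE 0.85) and 1.11 (SE 0.85), with limma adjusted p values of 0.561 and 0.539. Both are also stromal markers, and their differences had the opposite sign to those of miR-3960 and miR-2861. The level of miR-125b-5p was 5.51, 7.35 and 9.29 on the 0 Gy arrays and 8.18 to 9.34 on the 6 irradiated ones. Its lowest values were thus those of arrays 1 and 2 of 0 Gy, on which the scaled level of miR-3960 was 10.42 and 11.38. On array 3 of 0 Gy, where miR-125b-5p was at 9.29, miR-3960 was at 10.41, close to its level on array 1. The level of miR-2861 on arrays 1, 2 and 3 of 0 Gy was 6.25, 6.99 and 7.07. The part of the cells' make-up in the values of miR-3960 and miR-2861 was not tested.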

How the data were processed

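Each single-colour (Cy3) array has 1 deposited file of spot intensity values. The scanner software was Agilent Feature Extraction, version 11.5.1.1, as the file headers state. That software had detrended and background-subtracted the processed intensity and had not normalized it between arrays. The other deposited columns used were the spots' median signal and background, the signal summed per miRNA by the software, and marks of 0 or 1 for spots above background, outliers and saturation (0 spots saturated). The 9 columns of values in a table of the series match no sample title and were not used here. The header names an older genome build than the RefSeq tables, from which only the miRNAs named here were placed.

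Outlier spots were left out and a probe's spots averaged. A miRNA counted as detected with any probe detected. Scaling divided each array by its 75th percentile of the 45 probes that were detected throughout. A miRNA's level was the log2 of the sum of its scaled probes, floored at 11.5 units (log2 3.52, the 1st percentile of detected values). The 134 miRNAs with a detection call on every array of some dose were tested by limma 3.58.1 (lmFit, eBayes; R 4.3.3) over all 9 arrays, two-sided, Benjamini-Hochberg adjusted, at 0.05. The fit was tested on simulated data. Deviations from dose means of same-numbered arrays correlated at 0.837, 0.749 and 0.587 between 0.5 and 1 Gy (over the tested miRNAs). These were read as pairs from the data, and no label says what the numbers share. Arrays 2 and 3 of these doses also correlated across numbers, at 0.578 and 0.547. Deviations from a mean of 3 arrays sum to 0, so an outlying array 1 at both doses can alone bring such values about. The pairing by number is therefore uncertain. Named were both miRNAs, the 5 of highest r to each, tested members of the lists, seed sharers and the 3 brightest of high GC. The miRNAs, lists and tests were chosen with earlier results of these data known. Alternatives changed the scaling, background correction, summaries, detection, floor, blocks, variance model and arrays. Normexp was run on the median spot intensity with an offset of 50. Scaling on a labelling control (dmr_285) was chosen after seeing the data.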

Additional observations from a re-analysis of the deposited data

How the results depend on the processing

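No alternative brought either miRNA past the limma threshold, and the count of called miRNAs was 0 under each. At 0.5 Gy against 0 Gy, miR-3960 turned to 0.055 when slide was a block, and to 0.11 on the slide of 6 arrays alone, and miR-2861 to 0.23 after normexp. At 1 against 0.5 Gy, miR-2861 turned to 0.13 without scaling, 0.071 within that slide and 0.91 with the total gene signal, which the scanner software sets to a constant where a miRNA is not detected, and lay between -0.31 and 0.13 when single arrays were omitted. The within-array difference of miR-3960 and miR-2861 at 0.5 Gy turned to 0.13 after quantile normalization, 0.96 with the total gene signal and 0.48 within the slide, and lay between -0.43 and 0.26 when single arrays were omitted. Its slope on dose was -0.81 after normexp (exact permutation p = 0.0155, not adjusted), where -0.49 did not pass. The causes were not tested.

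Of 32 alternatives for miR-3960 and 31 for miR-2861, 21 each moved the difference of 1 Gy from 0 Gy, and it stayed below 0 in these. Omitting single arrays moved it between -1.13 (1 Gy array 1 omitted) and -0.56 (0 Gy array 2 omitted) for miR-3960, and between -0.66 (0 Gy array 1) and -0.25 (0 Gy array 3) for miR-2861. Without arrays 1 of 0.5 and 1 Gy, where miR-2861 was not detected, it differed by -0.085 and -0.45. Other scalings and normexp moved the median of all tested miRNAs by between -0.37 (no scaling) and 0.79 (normexp, sign turned) at 0.5 Gy, and between -0.59 (all probes) and 0.60 (normexp, sign turned) at 1 Gy. In comparisons with 0 Gy the replicate numbers were not taken as pairs, since 1 of 6 same-numbered pairs correlated above 0.1. With the replicate number as a block miR-3960 at 1 Gy had a limma adjusted p of 0.445 (0.345 to 0.942 over all alternatives), and the block changed no call. The block on the 0.5 and 1 Gy arrays alone, chosen after seeing the data, gave -0.51 (limma adjusted p = 0.84, 0.741 to 1 over the alternatives) for miR-3960 and -0.036 (0.985) for miR-2861 at 1 against 0.5 Gy, with 0 called and 10 at an unadjusted p under 0.05.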
